A study of Homo sapiens with 6 samples.

Results

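The genes described are MT2A, MT1X, MT1E, MT1F, MT1G and MT1M, which encode metallothioneins, SLC30A1, SLC39A8 and SLC39A14, which encode zinc transporters, and MTF1, which encodes a zinc-sensing transcription factor. They were taken by symbol, whatever their values, and are 10 of the 21293 genes in a table of normalized read counts from RNA-seq. The cells were H2087-LCC cells, a latency competent population selected in mice from the human lung adenocarcinoma (LUAD) line H2087. The study grew them in culture in 3 groups of 2 libraries, with SB505124 (SB) for 3 days or with TGFβ, also for 3 days or for 7. SB505124 inhibits the kinase of the TGFβ type I receptor, so the SB libraries are the baseline with TGFβ signaling blocked, and no untreated library was analysed here. The comparisons ask what TGFβ changed at each time, and what changed between the times. SB was sampled at 3 days alone, so at 7 days TGFβ and time in culture cannot be told apart. The study describes both libraries of each group as technical replicates, so SDs and p-values cover the spread between these libraries and may not cover that between cultures.

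Metallothioneins are small proteins rich in cysteine that bind zinc, copper and cadmium, and cells raise their transcripts when free zinc or cadmium rises. The transcription factor MTF1 senses zinc through its zinc fingers and binds metal response elements in the promoters of metallothionein genes and of SLC30A1, the zinc exporter of the plasma membrane. SLC39A8 (ZIP8) and SLC39A14 (ZIP14) work in the opposite direction and carry zinc, manganese and iron into the cytosol. Metallothionein genes also respond to glucocorticoids and oxidants.

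The metallothionein genes sit in 1 cluster on chromosome 16 and resemble each other, which matters for reading their counts. In the GENCODE annotation on GRCh37, the build of the files, MT2A lies at chr16:56642496-56643409, MT1E at chr16:56659387-56661024, MT1M at chr16:56666571-56667893, MT1F at chr16:56691643-56694610 and MT1X at chr16:56716382-56718108, all on the plus strand. MT1G lies at chr16:56700642-56701977 on the minus strand. The coding sequences of the 4 members whose values differ most in level and direction are shown, from start to stop codon, with the codons for cysteine in capitals.
MT2A: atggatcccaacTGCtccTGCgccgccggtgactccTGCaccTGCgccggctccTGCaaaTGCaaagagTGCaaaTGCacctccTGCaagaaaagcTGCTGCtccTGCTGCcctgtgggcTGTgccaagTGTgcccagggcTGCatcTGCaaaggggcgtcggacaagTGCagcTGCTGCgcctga
MT1E: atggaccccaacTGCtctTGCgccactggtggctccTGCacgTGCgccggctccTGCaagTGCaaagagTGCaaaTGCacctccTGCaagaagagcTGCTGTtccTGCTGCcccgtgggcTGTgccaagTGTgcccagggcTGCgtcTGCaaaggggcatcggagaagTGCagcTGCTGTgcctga
MT1X: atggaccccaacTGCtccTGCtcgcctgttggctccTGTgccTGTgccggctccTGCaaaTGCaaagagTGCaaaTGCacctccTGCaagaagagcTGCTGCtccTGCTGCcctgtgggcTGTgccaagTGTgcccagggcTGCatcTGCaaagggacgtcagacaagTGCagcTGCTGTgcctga
MT1M: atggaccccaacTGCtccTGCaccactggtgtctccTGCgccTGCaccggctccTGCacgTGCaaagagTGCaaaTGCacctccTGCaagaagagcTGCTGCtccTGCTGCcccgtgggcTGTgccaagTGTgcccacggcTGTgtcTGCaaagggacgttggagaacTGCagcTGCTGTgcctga
Each holds 61 codons before the stop codon, and 20 of them encode cysteine. Over the 186 bases, MT2A was identical to MT1X at 92.5% of positions, to MT1E at 92.5% and to MT1M at 89.8%, and MT1X was identical to MT1E at 90.9%. Of all stretches of 50 bases, the read length, 11.1% in the MT2A transcript were also found elsewhere in the genome or its transcripts, against 20.3% for MT1X, 5.34% for MT1E, 6.12% for MT1F and 14.6% for MT1M. A read that lies wholly in such a stretch cannot by itself be assigned to 1 gene. The reads were paired, and a mate outside the stretch can place the pair. The share of pairs that could not be assigned was not measured, so the levels of these genes carry that uncertainty. The exons of MT1X also lie within the span of a long non-coding RNA gene on the same strand, ENSG00000259827. How the authors' counting treated that overlap was not tested.

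The promoters of 3 members that MTF1 is known to bind are shown for the motif it recognizes. The windows are the 250 bases before the RefSeq start site on GRCh38.p14, written on the strand of the gene, for MT2A at chr16:56608334-56608583 (plus), MT1X at chr16:56682220-56682469 (plus) and SLC30A1 at chr1:211579162-211579411 (minus). Capitals mark the core of the metal response element, searched as TGCACNC or TGCGCNC on both strands, with no overlapping matches.
MT2A: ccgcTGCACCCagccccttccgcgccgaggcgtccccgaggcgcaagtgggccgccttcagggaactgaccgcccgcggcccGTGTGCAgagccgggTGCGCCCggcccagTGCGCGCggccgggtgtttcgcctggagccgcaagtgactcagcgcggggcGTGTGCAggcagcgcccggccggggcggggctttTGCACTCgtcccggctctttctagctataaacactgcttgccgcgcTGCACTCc
MT1X: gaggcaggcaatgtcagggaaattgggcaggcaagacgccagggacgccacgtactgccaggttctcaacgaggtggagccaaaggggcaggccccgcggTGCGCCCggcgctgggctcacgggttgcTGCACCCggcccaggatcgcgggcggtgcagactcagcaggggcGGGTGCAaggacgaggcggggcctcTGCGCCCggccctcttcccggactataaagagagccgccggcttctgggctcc
SLC30A1: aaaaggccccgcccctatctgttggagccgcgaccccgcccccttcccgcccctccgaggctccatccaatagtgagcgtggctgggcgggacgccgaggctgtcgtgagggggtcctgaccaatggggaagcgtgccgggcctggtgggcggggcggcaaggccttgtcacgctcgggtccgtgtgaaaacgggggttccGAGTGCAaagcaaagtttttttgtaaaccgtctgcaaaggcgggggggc
The MT2A window held 7 cores, 5 of TGCACNC and 2 of TGCGCNC, and the MT1X window held 4, 2 of each. The SLC30A1 window held 1 core, on the other strand, the MTF1 window held 0, and 1 of the 3 SLC39A8 windows held 1. Among 35116 promoter windows of the same length from 27305 genes, 24.8% held at least 1 core, 0.370% at least 4 and 0.0513% at least 6. A match describes the letters only and is not evidence of binding. MT1E, MT1F, MT1G, MT1M and SLC39A14 have no window in the table used.

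Normalized counts summed to between 34306283 and 36340734 per library, 1 read was worth an estimated 0.896 to 1.10 normalized counts, and the estimated number of assigned reads was 32000000 to 40000000. These estimates cover counting error only, and the spread between the 2 libraries of a group was larger. For each of 11389 genes, the squared difference between the 2 libraries was divided by the counting variance. The median of this ratio was 10.5 times its value under counting error alone in SB, 9.22 times after 3 days of TGFβ and 7.77 times after 7 days. The TGFβ targets SMAD7, SKIL, FN1 and TGFBI all rose at both times, by 1.10 to 3.17 on the log2 scale at 3 days and 1.71 to 3.77 at 7 days. Of 9 lung epithelial markers, 6 fell at each time, where 14.0% of all genes fell at 3 days and 26.9% at 7 days. They were CDH1, EPCAM, KRT18, NAPSA, NKX2-1 and SFTPB. Their log2 fold changes ran from -6.92 (SFTPB) to -0.29 (KRT18) at 3 days and from -7.14 (SFTPB) to -0.56 (KRT18) at 7 days. KRT7 rose at each time, while KRT8 remained between 33341 and 42692 in the 6 libraries. Of the leukocyte and endothelial markers, PTPRC was at 4 or fewer normalized counts, LYZ at 5 or fewer, CD3E at 1 or fewer and CDH5 and VWF at 20 or fewer, while CD68, a lysosomal protein of many cell types, was between 4368 and 5113 and PECAM1 between 36 and 67. The SB libraries stood apart from each other in SFTPB, surfactant protein B, at 1104 and 8273, and the part of this difference in the results was not tested. In RNA from a whole culture, fewer cells of a kind and less RNA per cell cannot be told apart.

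Compared per length of transcript, MT2A was the most abundant member in every group. It reached 19480 normalized counts per kb in SB, 27056 at 3 days and 20332 at 7 days. MT1E followed at 7465, 6090 and 3628 normalized counts per kb, and MT1X at 2729, 1410 and 1214. The metallothionein members MT1F and MT1M were lower, at 255, 106 and 169 and at 183, 91.7 and 42.7 normalized counts per kb. Of the transporters, SLC39A14 was at 676, 901 and 940 normalized counts per kb, SLC39A8 at 420, 486 and 421 and SLC30A1 at 87.8, 76.2 and 77.1. MTF1 was at 152, 152 and 183 per kb. MT1G was at 1 normalized count in 1 library and 0 in the other 5, so it was not tested, and at this depth a level under 3 reads cannot be told from 0.

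MT2A, the main metallothionein of these cells, was higher after 3 days of TGFβ and overlapped the SB libraries at 7 days. MT1X, MT1E and MT1M were lower at 7 days. At 3 days MT2A was higher and MT1X, MT1F and MT1M were lower, whereas at 7 days 0 metallothioneins were called higher than SB. After 3 days, 5 of the 9 members tested differed from SB with limma (adjusted p under 0.05), where 29.0% of all 14395 genes tested did. MT2A and SLC39A14 were higher, in a direction taken by 14.9% of all genes, and MT1X, MT1F and MT1M were lower, in a direction taken by 14.0%. The median log2 fold change of the 9 members was -0.20, beside -0.02 over all genes. After 7 days, 5 of 9 again differed from SB, where 54.5% of all genes did, so this count is near the background. SLC39A14 and MTF1 were higher (27.7% of all genes were higher) and MT1X, MT1E and MT1M lower (26.9% of all genes were lower), with a member median of -0.19 against -0.0008 over all genes. Between 7 days and 3 days, MT2A, MT1E and MT1M were lower and 0 members higher. That is 3 of 9 called, where 33.2% of all genes were, 16.2% of them lower, and the member median was -0.20 against 0.02.

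**Figure D1:**
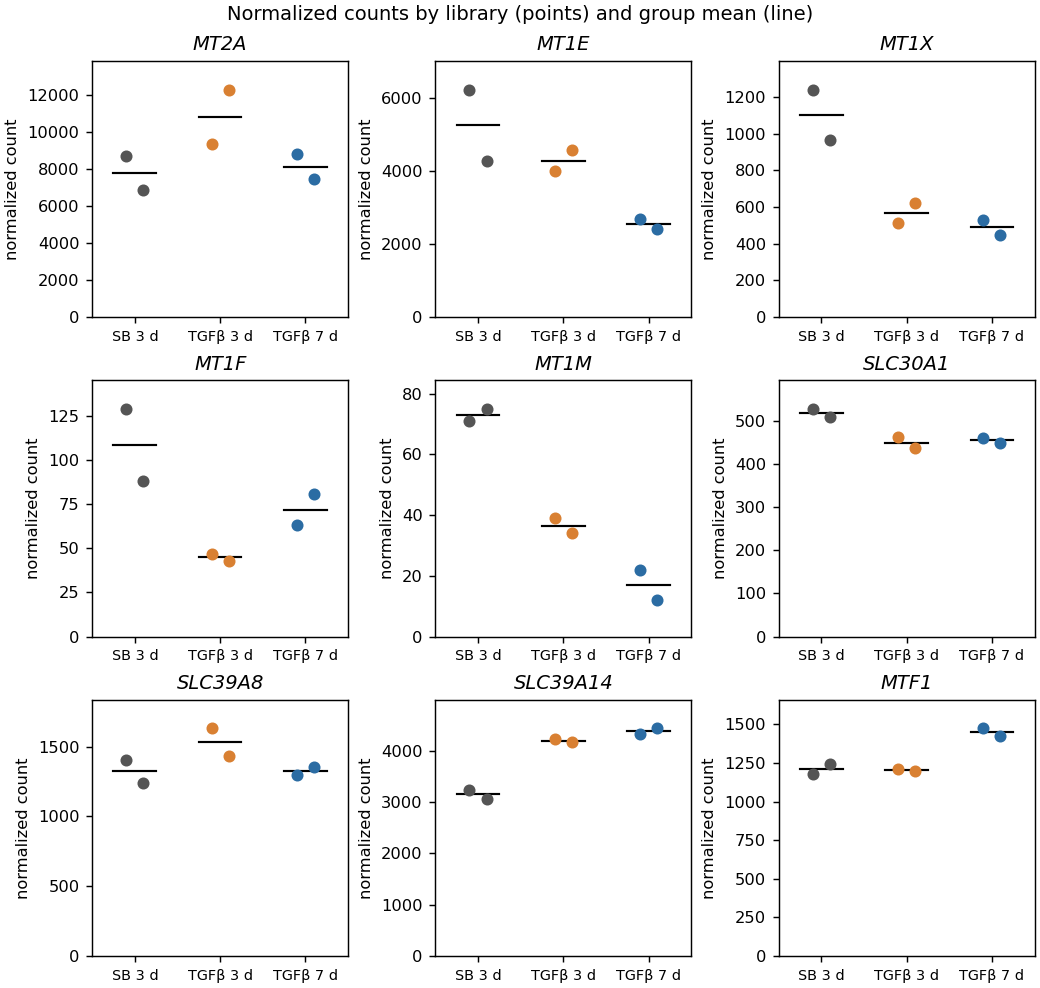
Normalized count (linear axis from 0) of the 9 tested members in each library (points) with the mean of the 2 libraries of a group (line), for SB at 3 days, TGFβ at 3 days and TGFβ at 7 days. MT1X, MT1F and MT1M were lower in both 3-day libraries than in both SB libraries, and SLC39A14 was higher in all 4 TGFβ libraries than in both SB libraries.

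MT2A was measured at 8744 and 6879 normalized counts in SB, 9380 and 12319 after 3 days of TGFβ and 8818 and 7488 after 7 days. Both 3-day libraries were above the 4 others, and the 7-day libraries overlapped SB. The group means were 7812 ± 1319, 10850 ± 2078 and 8153 ± 940 (SD, n = 2). Against SB, the log2 fold change of MT2A was 0.47 (SE 0.14, limma adjusted p = 0.0263) at 3 days and 0.07 (adjusted p = 0.707) at 7 days, with a 95% interval of -0.24 to 0.38 for the latter. Over 17 alternatives the 7-day value ran from -0.11 to 0.28, and 1 of them called a difference. Between 7 and 3 days MT2A fell by 0.40 on the log2 scale (limma adjusted p = 0.0457). The rise at 3 days rested on single libraries: the log2 fold change was 0.30 without the second SB library and 0.27 without the second 3-day library (limma adjusted p = 0.194 for each), 12 of 17 alternatives kept the call, and their adjusted p ranged from 0.00318 to 0.194. The fall from 3 to 7 days was kept in 11 of 17 (adjusted p 0.0105 to 0.324) and was lost without the second 3-day library (-0.21) or without either 7-day library (-0.52 and -0.29).

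MT1X moved the other way from MT2A and stayed low. Its normalized counts were 1241 and 964 in SB, 515 and 624 at 3 days and 532 and 449 at 7 days, so both SB libraries were above the 4 TGFβ libraries. The means were 1103 ± 196, 570 ± 77.1 and 491 ± 58.7 (SD, n = 2). MT1X fell at 3 days by 0.95 on the log2 scale (SE 0.15, limma adjusted p = 0.000627) and by 1.16 at 7 days (adjusted p = 5.87e-05), and all 17 alternatives called both falls. The 2 times were not distinguished, with a log2 difference of -0.21 (95% interval -0.55 to 0.12, limma adjusted p = 0.307).

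MT1E, the second most abundant metallothionein, was lower mainly at 7 days. It was measured at 6236 and 4275 normalized counts in SB, 4007 and 4568 at 3 days and 2688 and 2420 at 7 days. The 3-day libraries overlapped SB, and both 7-day libraries were below the 4 others. The means were 5256 ± 1387, 4288 ± 397 and 2554 ± 190 (SD, n = 2). The log2 fold change against SB was -0.27 (SE 0.15, limma adjusted p = 0.193) at 3 days and -1.02 (adjusted p = 0.000124) at 7 days, and MT1E fell by 0.75 between 3 and 7 days (adjusted p = 0.00298). The 3-day value depended on which SB library was used, at 0.0011 without the first (limma adjusted p = 0.996) and -0.54 without the second (adjusted p = 0.00741, range over 17 alternatives 0.00741 to 0.996). The 7-day fall against SB was called in all 17, and the fall between the times in 15, being lost with no filter (adjusted p = 0.0572) and without the trend (adjusted p = 0.0506, lowest over the 17 5.66e-05).

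MT1M and MT1F were low in level, and both were lower than SB at 3 days. MT1M was at 71 and 75 normalized counts in SB, 39 and 34 at 3 days and 22 and 12 at 7 days, and the 3 groups did not overlap. Its log2 fold change was -0.98 at 3 days (SE 0.32, limma adjusted p = 0.0355), -2.10 at 7 days (adjusted p = 0.000163) and -1.11 between the times (adjusted p = 0.0188). Its 3-day call was lost without any 1 of the SB or 3-day libraries, though the log2 fold change stayed between -1.08 and -0.89. That call was also lost with no filter (limma adjusted p = 0.107) and without the trend (adjusted p = 0.0568). By contrast, the 7-day fall of MT1M was called in all 16 alternatives that could be computed. Its fall between the times was lost without the first 3-day library (-1.02, adjusted p = 0.0971) or the second 7-day library (-0.70, adjusted p = 0.174; 0.00969 to 0.174 over 16 alternatives).

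MT1F was at 129 and 88 normalized counts in SB, 47 and 43 at 3 days and 63 and 81 at 7 days. Both 3-day libraries were below the 4 others. MT1F fell at 3 days by 1.23 on the log2 scale (SE 0.25, limma adjusted p = 0.00311), in all 17 alternatives. Against SB at 7 days its log2 fold change was -0.57 (95% interval -1.12 to -0.02), which missed the threshold after adjustment (limma adjusted p = 0.0725), and was -0.30 without the first SB library (adjusted p = 0.372) and -0.84 without the second (adjusted p = 0.0201, range over 17 alternatives 0.0201 to 0.372). Between 7 and 3 days it differed by 0.66 (limma adjusted p = 0.0628), past the threshold in 4 of 17 alternatives, among them the fits without the first or the second SB library (adjusted p = 0.0372 and 0.0339, range over the 17 from 0.0291 to 0.334).

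**Figure D2:**
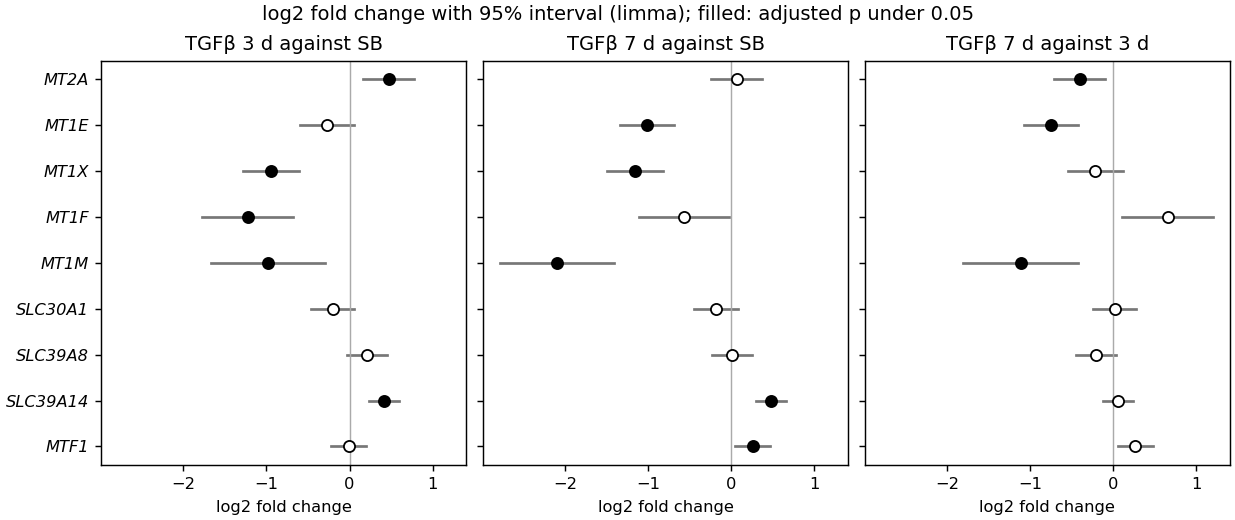
log2 fold change of log2(normalized count + 1) for the 9 tested members with its 95% interval from limma, in a panel each for the 3-day group against SB, the 7-day group against SB and the 7-day group against the 3-day group; filled points have an adjusted p under 0.05. MT2A and MT1X lie on opposite sides of 0 at 3 days (0.47 and -0.95), and MT1M has the lowest value at 7 days (-2.10).

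Ratios between metallothioneins taken within each library do not depend on how the libraries were scaled. MT2A exceeded MT1X 7.05-fold and 7.14-fold in the SB libraries, 18.2-fold and 19.7-fold at 3 days and 16.6-fold and 16.7-fold at 7 days. The SB libraries were below all 4 TGFβ libraries, by far more than the spread within a group. MT2A exceeded MT1E 1.40-fold and 1.61-fold in SB, 2.34-fold and 2.70-fold at 3 days and 3.28-fold and 3.09-fold at 7 days, so that the 3 groups did not overlap. The ratio of MT2A to MT1L, an annotated pseudogene of the cluster, did not separate SB from 3 days. It was 17.1 and 18.1 in SB, 15.0 and 17.6 at 3 days and 23.6 and 25.8 at 7 days, so both 7-day libraries were above the 4 others. With 2 libraries against 2, an exact permutation test cannot give a p below 0.333, so the ratios are given as values.

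Over the 13 metallothionein genes in the table, the summed normalized counts were 17604 and 13148 in SB, 15122 and 18836 at 3 days and 12807 and 10995 at 7 days. The sum overlapped between SB and 3 days, and both 7-day libraries were below the 4 others. Within that sum, MT2A made up 49.7% and 52.3% in SB, 62.0% and 65.4% at 3 days and 68.9% and 68.1% at 7 days. The share of MT1E went the other way, from 35.4% and 32.5% in SB to 26.5% and 24.3% at 3 days and 21.0% and 22.0% at 7 days. MT1X held 7.05% and 7.33% in SB and between 3.31% and 4.15% in the TGFβ libraries. These shares are of counts, not of molecules, since MT1E has a longer transcript (704 nt) than MT2A (401 nt) or MT1X (404 nt).

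**Figure D3:**
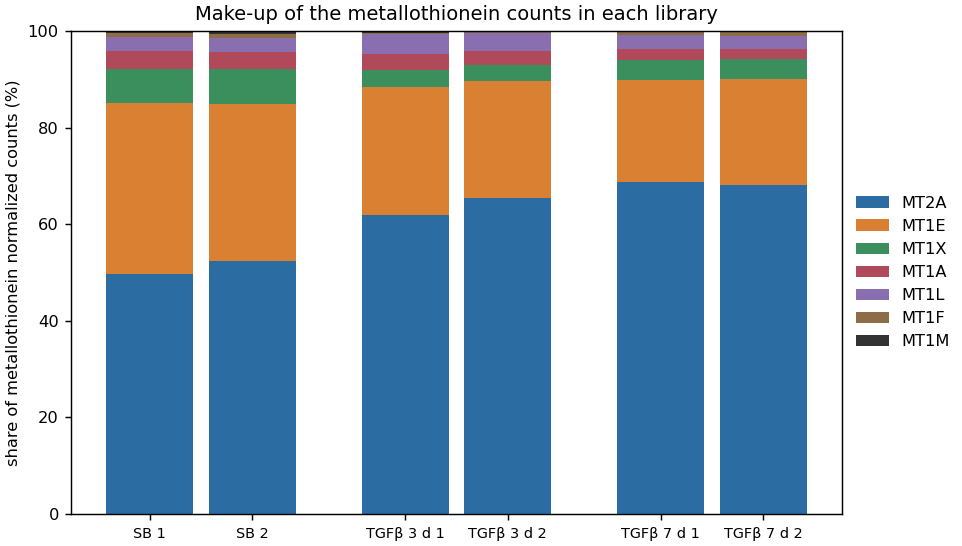
Share of the summed metallothionein normalized counts (percent, vertical axis) held by each of 7 metallothionein genes in the 6 libraries (bars). The MT2A part grows from 49.7% and 52.3% in the SB libraries to 68.9% and 68.1% in the 7-day libraries, while the MT1E part shrinks.

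Libraries of the same group differed in the level of the family. The first SB library exceeded the second 1.27-fold for MT2A, 1.46-fold for MT1E, 1.29-fold for MT1X, 1.39-fold for MT1A and 1.47-fold for MT1F, but not for MT1M, where the ratio was 0.947. Of the 3-day libraries, the first was at 0.761 times the second for MT2A, 0.877 times for MT1E and 0.825 times for MT1X, and of the 7-day libraries at 1.18 times for MT2A, 1.11 times for MT1E and 1.83 times for MT1M. Of 11389 genes (mean of 100 or more), 12.3% had a wider gap between the SB libraries than MT2A. The ratio of MT2A to MT1X, by contrast, was nearly equal in both SB libraries (7.05 and 7.14).

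Of 12 further metallothionein genes and pseudogenes listed, 7 were in the table and 2, MT1A and MT1L, were abundant enough to test. MT1A, which encodes another metallothionein, was at 663 and 478 normalized counts in SB, 499 and 540 at 3 days and 299 and 242 at 7 days. Like MT1E, it overlapped SB at 3 days (log2 fold change -0.12, limma adjusted p = 0.649) and fell at 7 days, by 1.06 (adjusted p = 0.000253). MT1L is annotated as a pseudogene and lies within the span of a long non-coding RNA gene on the same strand, ENSG00000291105. MT1L was at 510 and 380 in SB, 627 and 700 at 3 days and 374 and 290 at 7 days. It rose by 0.59 at 3 days (limma adjusted p = 0.0220), fell by 1.01 from 3 to 7 days (adjusted p = 0.00127) and at 7 days had a log2 fold change of -0.42 against SB (adjusted p = 0.0552). Its 3-day rise was lost without the second SB library (0.38, limma adjusted p = 0.146) or the second 3-day library (0.51, adjusted p = 0.104), within a range of 0.00241 to 0.146 over 17 alternatives. Per kb, MT1L stood at 2392, 3567 and 1785 normalized counts in SB, at 3 days and at 7 days, and MT1A at 1441, 1312 and 683. The MT1L values rest on an annotated transcript of 186 nt, against 404 nt for MT1X. Per kb MT1L was above MT1X in both TGFβ groups. In mean counts it was above MT1X at 3 days (664 against 570) and below it at 7 days (332 against 491). MT1DP was between 7 and 12 normalized counts and MT1B and MT1H at 1 or 0.

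Among the transporters, SLC39A14 was the member that changed at both times. This importer was at 3240 and 3063 normalized counts in SB, 4233 and 4171 at 3 days and 4330 and 4440 at 7 days. All 4 TGFβ libraries were above both SB libraries, and the group means were 3152 ± 125, 4202 ± 43.8 and 4385 ± 77.8 (SD, n = 2). SLC39A14 rose by 0.42 on the log2 scale at 3 days (SE 0.08, limma adjusted p = 0.00261) and by 0.48 at 7 days (adjusted p = 0.000440), both in all 17 alternatives. The 2 times differed by 0.06, with a 95% interval of -0.12 to 0.24, and did not pass the test.

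SLC39A8, the closest relative of SLC39A14, did not pass the test at either time. It was at 1408 and 1239 normalized counts in SB, 1632 and 1432 at 3 days and 1300 and 1357 at 7 days. Both 3-day libraries were above SB, the second of them narrowly, and the 7-day libraries lay within the range of SB. The log2 fold change against SB was 0.21 (95% interval -0.03 to 0.45, limma adjusted p = 0.170) at 3 days and 0.01 (-0.23 to 0.25, adjusted p = 0.954) at 7 days. The sign at 7 days turned with equal library totals (-0.040), where SLC39A8 was not called either.

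SLC30A1, the exporter that MTF1 is known to induce when zinc rises, was at 527 and 508 normalized counts in SB, 461 and 437 at 3 days and 460 and 449 at 7 days. Both SB libraries were above the 4 TGFβ libraries, but by little. The log2 fold change was -0.20 (95% interval -0.47 to 0.06, limma adjusted p = 0.229) at 3 days and -0.19 (-0.45 to 0.08, adjusted p = 0.208) at 7 days. After correction of each library for GC content and transcript length the falls were 0.27 and 0.31 on the log2 scale and passed the threshold (limma adjusted p = 0.0382 and 0.0138), while the other 16 alternatives of each did not call them (adjusted p up to 0.526 and 0.455). The ratio of SLC39A14 to SLC30A1 within a library was 6.15 and 6.03 in SB, 9.18 and 9.54 at 3 days and 9.41 and 9.89 at 7 days, with no overlap between SB and TGFβ libraries.

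MTF1 was at 1179 and 1241 normalized counts in SB, 1209 and 1197 at 3 days and 1475 and 1423 at 7 days. The 3-day libraries lay within the range of SB, and both 7-day libraries were above the 4 others. The log2 fold change at 3 days was -0.01 (95% interval -0.22 to 0.20, limma adjusted p = 0.960), with its sign turned by median-of-ratios or upper quartile scaling (0.0012 and 0.0047). At 7 days it was 0.26 against SB (SE 0.10, limma adjusted p = 0.0376) and 0.27 against 3 days (adjusted p = 0.0506), the latter past the threshold in 7 of 17 alternatives, among them those without either SB library (adjusted p = 0.0342 and 0.0344, range over the 17 from 0.0336 to 0.246). The rise against SB was called in 7 of 17 alternatives (limma adjusted p 0.0271 to 0.940), fell to 0.0059 after correction for GC content and transcript length, and was lost without the first SB library (0.22), either 3-day library (0.26 for each) or either 7-day library (0.23 and 0.29).

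The rest of the zinc transporters were read from lists of both families. Of 9 other SLC30 exporters, 8 were in the table and 5 were tested, and SLC30A4 was the one that rose at both times. SLC30A4, which moves zinc into vesicles, was at 22 and 15 normalized counts in SB, 39 and 59 at 3 days and 114 and 129 at 7 days, with no overlap between the 3 groups. It rose by 1.35 on the log2 scale at 3 days (limma adjusted p = 0.00431) and by 2.67 at 7 days (adjusted p = 1.32e-05), with both calls kept in all 17 alternatives. Of its transcript, 6456 bases lie within the span of the antisense gene SLC30A4-AS1 and 801 within that of HMGN2P46, also on the opposite strand. The kit did not mark strand, so reads of these genes cannot be told apart where their exons overlap. How far the exons overlap was not measured. SLC30A5, which fills the secretory pathway with zinc, rose by 0.26 at 7 days (limma adjusted p = 0.0206). This call was lost without the first 7-day library (0.31) or the second (0.21). Of the SLC30A5 transcript, 3303 bases lie within the span of an antisense gene, ENSG00000248664. At 3 days 1 of 5 rose and 0 fell, with a median of 0.09, and at 7 days 2 rose and 0 fell, with a median of 0.21, while 14.9% and 27.7% of all genes rose, so these counts are near the background. Between the times SLC30A4 rose by 1.32 and 0 of 5 fell, with a median of 0.12, where 17.0% of all genes rose and 16.2% fell. The call of SLC30A4 between the times was lost without the first 3-day library (1.03) or the second 7-day library (1.23).

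**Figure D4:**
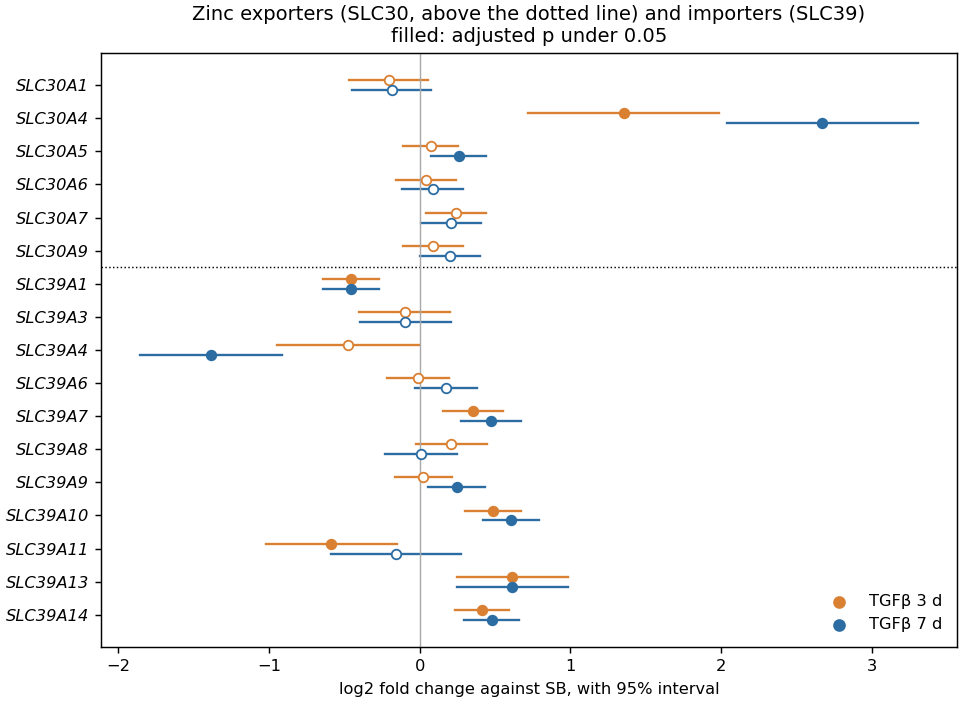
log2 fold change against SB of log2(normalized count + 1), with its 95% interval from limma, for the tested SLC30 exporters (above the dotted line) and SLC39 importers at 3 days (orange) and 7 days (blue) of TGFβ; filled points have an adjusted p under 0.05. SLC30A4 has the highest values (1.35 and 2.67) and SLC39A4 the lowest at 7 days (-1.38).

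Of 12 other SLC39 importers, 9 were tested, with 3 that rose and 2 that fell at 3 days (median -0.01) and 4 that rose and 2 that fell at 7 days (median 0.18). Over all genes 29.0% were called at 3 days and 54.5% at 7 days, so the 7-day count is not far from the background. SLC39A10, an importer of the plasma membrane, was at 3188 and 3161 normalized counts in SB, 4650 and 4249 at 3 days and 4717 and 4963 at 7 days, and rose by 0.49 and 0.61 on the log2 scale. SLC39A7, which releases zinc from the endoplasmic reticulum, rose by 0.35 and 0.47, and SLC39A13, an importer that acts in the secretory pathway, by 0.61 and 0.62. The 3-day rise of SLC39A7 was lost without the first SB library (0.24), the first 3-day library (0.37) or the second (0.34), and that of SLC39A13 without the second SB library (0.52) or the second 3-day library (0.35). At 7 days SLC39A13 was no longer called without the second SB library (0.52) or the first 7-day library (0.47).

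SLC39A1, an importer found in most cells, was at 5452 and 6059 normalized counts in SB, 4143 and 4244 at 3 days and 4231 and 4139 at 7 days. It fell by 0.45 and 0.46 on the log2 scale, called in every alternative. Of its exon bases, 1997 lie within the span of another annotated gene on the same strand, ENSG00000285779. SLC39A4, the importer of dietary zinc in the gut, was at 133 and 134 in SB, 89 and 103 at 3 days and 58 and 44 at 7 days. It fell by 1.38 at 7 days, in every alternative. Between the times it was the 1 importer of the list that differed (1 of 9, median 0.12), where 33.2% of all genes did. Its fall between the times was 0.91 (limma adjusted p = 0.00785). The latter call was lost without the second 3-day library (-0.80, limma adjusted p = 0.0584) or the second 7-day library (-0.71, adjusted p = 0.0857), over 17 alternatives with adjusted p from 0.00142 to 0.0857. The other calls were SLC39A9, which rose by 0.25 at 7 days, and SLC39A11, which fell by 0.59 at 3 days. The rise of SLC39A9 was kept in 10 of 17 alternatives and lost without the second SB library (0.23) or either 7-day library (0.30 and 0.19). SLC39A11 was at 683 and 1175 normalized counts in the SB libraries, and the fall was 0.20 without the second of them (limma adjusted p = 0.315, the highest over 17 alternatives, whose lowest was 0.000611). It was also lost without the first 3-day library (-0.48) or either 7-day library (-0.59 for each).

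Related lists hold genes that share inducers or metals with the metallothioneins, and their counts are to be read against the 29.0%, 54.5% and 33.2% of all genes called at 3 days, at 7 days and between the times. Of 13 genes of copper and iron handling, 5 rose and 1 fell at 3 days (median 0.03), 5 rose and 2 fell at 7 days (median 0.22) and 3 rose and 3 fell between the times (median 0.17). The 7-day count, 7 of 13, is at the background. ATP7A, the copper exporter, was at 659 and 673 normalized counts in SB, 1077 and 978 at 3 days and 1520 and 1651 at 7 days, and rose by 0.62 and 1.25 on the log2 scale, called in all 17 alternatives at both times. Its 3 groups did not overlap, and ATOX1, which carries copper to it, rose by 0.46 and 0.90. TFRC, the transferrin receptor for iron uptake, fell by 0.51 at 7 days.

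Of 9 genes of metal and oxidative stress, 4 rose and 3 fell at 3 days (median 0.01), 3 rose and 3 fell at 7 days (median 0.15) and 2 rose and 4 fell between the times (median 0.05), where 29.0%, 54.5% and 33.2% of all genes were called. HMOX1, heme oxygenase 1, which heme, oxidants and heavy metals induce, was at 737 and 520 normalized counts in SB, 1961 and 2243 at 3 days and 1450 and 1254 at 7 days. As with MT2A, its 3-day libraries were above the 4 others. HMOX1 rose by 1.76 on the log2 scale at 3 days (limma adjusted p = 4.79e-06) and by 1.12 at 7 days (adjusted p = 7.80e-05), and fell by 0.64 from 3 to 7 days (adjusted p = 0.00856), a fall lost without the second 7-day library (-0.53, adjusted p = 0.0805, the highest of 17 alternatives). TXNRD1, a thioredoxin reductase, fell by 0.68 at 7 days. Of 10 tested genes of the glucocorticoid response, 4 rose and 1 fell at 3 days (median 0.29), 3 rose and 2 fell at 7 days (median -0.07) and 3 rose and 3 fell between the times (median -0.10), so that the 7-day count, 5 of 10, is also near the background of 54.5%. TSC22D3 (GILZ), a classic glucocorticoid target and the largest riser of the list at 7 days, rose by 0.41 at 3 days and 1.38 at 7 days. Its 3-day call was lost without the first 3-day library (0.35). At 7 days CRISPLD2 fell by 1.03 and NFKBIA by 0.37, and FKBP5 was not called at 3 days (0.18) or at 7 days (0.11). The 7-day call of NFKBIA was kept in 10 of 17 alternatives. NFKBIA was at 3953 and 5810 normalized counts in the SB libraries, and without the second of them its log2 fold change at 7 days was -0.09.

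The genes whose pattern over the 6 libraries lay nearest to 3 of the members were found by Pearson's r of log2(normalized count + 1) among 11382 genes (mean of 100 or more). For MT2A they were TPST2 (r = 0.989), CYB561D2 (0.975) and CREG2 (0.973), and 12 genes had an r above 0.95. For SLC30A1 they were PPME1 (0.995), PRICKLE1 (0.989) and TMEM171 (0.986), with 63 genes above 0.95, and for SLC39A8 they were LACTB (0.993), THUMPD1 (0.990) and USP14 (0.986), with 51. With 6 points that share 3 groups, these values describe likeness in these libraries and are given without a test.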

How the data were processed

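RNA-seq of 6 libraries of H2087-LCC cells, a human cell line, was analysed in 3 groups of 2, taken from the treatment labels. Per the study's methods and the submitters' processing notes, the authors checked read pairs with FastQC 0.11.5, mapped them to hg19 with STAR, counted uniquely mapped reads per gene with HTSeq 0.6.1p1 and normalized them by library size (DESeq2 3.4 is the version given). The annotation release is not given in the sources used here, and the library kit did not mark strand. The deposited values are whole-number normalized counts, recorded here under the unit score, because they are not read counts. Read counts per gene were not recovered, so the negative binomial test of the study was not used.

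Genes averaging 10 or more (14395 of 21293) were fitted as log2(value + 1) with limma 3.58.1 in R 4.3.3 (empirical Bayes with a trend, 3 residual degrees of freedom), with Benjamini-Hochberg adjustment over all genes tested, threshold 0.05. Fold changes are on the log2(value + 1) scale, which understates those of low genes. The fit was tested on simulated data. The 10 members, the lists and the 3 nearest genes to MT2A, SLC30A1 and SLC39A8 form the rule for named genes. A gene of the list of TGFβ targets is not reported here. The members and lists were chosen with earlier results of these data known. Alternatives were a pseudocount of 0.5 or 5, no filter, a mean of at least 50, 3 other scalings, no trend, only the 4 libraries compared, the replicate number as a block, a GC content and length correction, and each library left out. Applying them to the list genes called was chosen after seeing the data. Python 3.11.15, pandas 2.3.3, numpy 2.4.6 and matplotlib 3.10.9 were used. Positions came from GENCODE on GRCh37, promoters from RefSeq on GRCh38.p14.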

Additional observations from a re-analysis of the deposited data

Results flagged for a closer look

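For 3 of the 9 members tested, the 7-day libraries differed from the 3-day libraries in limma. Of all genes 33.2% did, so this count is at the background. The log2 difference, 7 days minus 3 days, was -0.40 for MT2A (adjusted p = 0.0457), -0.75 for MT1E (adjusted p = 0.00298) and -1.11 for MT1M (adjusted p = 0.0188). The alternatives that called the difference were 11 of 17 for MT2A, 15 of 17 for MT1E (limma adjusted p up to 0.0572, with no filter on low values) and 13 of 16 for MT1M. Both 7-day libraries were below both 3-day libraries for each of the 3 genes. MT2A had been higher than SB at 3 days, whereas MT1E had overlapped SB and MT1M had been lower. The SB libraries cancel out of the log2 difference but enter the shared estimate of the spread, and with it the adjusted p. Time in culture and time with TGFβ cannot be told apart in this comparison. Groups of 2 libraries are too small for a test of single outlying libraries.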

How the results depend on the processing

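Of 456 values of the members under 17 alternatives, 395 kept their direction and their side of the threshold, 32 kept the direction but were no longer called, 16 became called and 13 changed sign. The number of members called at 3 days, 5 as reported, was 3 with no filter on low values and 3 without the trend, and 3 to 5 with 1 library left out. Between 7 and 3 days, 3 as reported, it was 1 with no filter, 1 without the trend, 5 with only the 4 libraries compared and 1 to 5 with 1 library left out. At 7 days against SB it stayed between 4 and 6. Over all genes, 4170 calls at 3 days became 2609 to 3877 with 1 library left out, and 4775 between the times became 3042 with no filter, 3122 without the trend and 2314 to 5554 with 1 library left out. The cause of these changes was not tested.

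All sign changes were in values that were not called. With 1 library left out, the log2 fold change at 3 days ran from -0.54 to 0.0011 for MT1E and from -0.045 to 0.029 for MTF1, that at 7 days from -0.11 to 0.24 for MT2A and from -0.084 to 0.10 for SLC39A8, and that between the times from -0.021 to 0.056 for SLC30A1. The signs also changed for MTF1 at 3 days with median-of-ratios (0.0012) and upper quartile scaling (0.0047), and for SLC39A8 at 7 days with equal library totals (-0.040) and the GC content and length correction (-0.0098). Between the times they changed with that correction for SLC30A1 (-0.040) and SLC39A14 (-0.033). The correction covered 12837 of 14395 genes. MT1M falls under a mean of 50 and has no value there. No scaling moved the median of all genes by more than 0.08 on the log2 scale. With a library left out, the lone library of its group is assumed to vary like the others. Of 1799 values of list genes that were called, 141 lost the call and 0 changed sign.

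Libraries with the same replicate number did not vary together in a common direction. Over 11389 genes, the difference between libraries 1 and 2 correlated across groups with r = 0.208 for 3 days and SB, -0.130 for 7 days and SB and -0.647 for 7 and 3 days. For 7 and 3 days the differences thus tended to run in opposite directions, which a block by replicate number does not model. With the replicate number as a block, 5, 4 and 3 members were called in the 3 comparisons, and 3943, 7546 and 4485 of all genes. Among the members, MTF1 at 7 days alone lost its call under the block (0.26, limma adjusted p = 0.0841).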
